A study of Mus musculus with 6 samples.

Results

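Arginine synthesis and polyamine metabolism were followed in MIN6 cells through 10 genes, Ass1, Asl, Arg2, Oat, Odc1, Azin1, Oaz1, Amd1, Srm and Sat1, out of 21652 listed in a table of ribosome footprint counts. The genes were taken by symbol, and each symbol stood in 1 row. The set was drawn up with results of the sgLTN1 against sgNT comparison known, and Ass1 gave it its name because it was among the genes already called lower there. The differences between the groups are therefore given for the 10 genes as a description. Whether a gene passed the threshold over all genes is stated beside the share of all tested genes that did, and supports nothing here.

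MIN6 cells are a mouse line from a beta-cell tumour of the pancreas, and they make and secrete insulin. In ribosome profiling, RNase I removes mRNA that ribosomes do not cover and the protected fragments are sequenced, so a gene's count carries both its mRNA level and its ribosome occupancy. The 3 control libraries came from cells with the sgNT guide, taken here as non-targeting, and the 3 others from cells with the sgLTN1 guide against Ltn1, the ubiquitin ligase of ribosome-associated quality control. All 6 libraries share the cell line and a single batch label. The labels name no drug, medium change or time point, and do not say whether the guide-bearing cells were a clone or a mixed population, or whether each library had a culture of its own, so the p-values here reflect no more than how these samples vary, and that variation may be technical.

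Library totals ran from 4373467 to 11198735 counts. Footprints on Ltn1 were 141 to 145 CPM (read counts scaled to a common library size) in sgNT and 64.9 to 71.5 CPM in sgLTN1, with a log2 fold change of -1.09 (SE 0.07, adjusted p = 9.24e-05 by edgeR). Beta-cell markers summed to 123000 to 135000 CPM in sgNT and 125000 to 146000 CPM in sgLTN1, led by Ins2, Iapp and Chga, whereas the beta-cell glucose transporter gene Slc2a2 was near 0 in both groups with 13 and 22 counts. Acinar, duct, fibroblast and endothelial marker lists each summed to under 10 CPM in every library. Markers of other islet cells, mostly Gcg, summed to 585 to 616 CPM in sgNT and 582 to 661 CPM in sgLTN1, and macrophage markers, mostly Cd68, to 29.1 to 35.8 CPM and 26.9 to 29.2 CPM. Within the islet list, the somatostatin gene Sst read 28.9 to 31.7 CPM in sgNT and 40.5 to 47.5 CPM in sgLTN1 (log2 fold change 0.50, SE 0.09, adjusted p = 0.062 in edgeR), and the pancreatic polypeptide gene Ppy 2.06 to 3.96 and 4.97 to 6.95 CPM (0.82, SE 0.26, adjusted p = 0.176 in edgeR). Neither gene overlapped between the groups. Sst was past the threshold in 3 of the 14 alternative settings that gave it an adjusted p. These were without sgLTN1 library 3 (0.44, adjusted p = 0.0312 in edgeR), with no filter on low counts (0.52, adjusted p = 0.0097 in edgeR) and with the replicate number as a block (0.51, adjusted p = 0.011 in edgeR). The part of these markers in the results was not tested. Library 3 of sgLTN1 stood farthest from another library of its group, as measured by chi-square over degrees of freedom: 7.31 against library 1, where libraries 1 and 2 of sgLTN1 gave 2.60.

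Arginine can be made inside a cell from citrulline in a pair of steps. Argininosuccinate synthase, encoded by Ass1, joins citrulline to aspartate, and argininosuccinate lyase, encoded by Asl, splits the product into arginine and fumarate. Arginases, of which Arg2 encodes the mitochondrial form, turn arginine into urea and ornithine, and ornithine is taken either by ornithine aminotransferase (Oat) towards glutamate and proline or by ornithine decarboxylase (Odc1) towards putrescine. Spermidine synthase (Srm) extends putrescine with a group supplied by S-adenosylmethionine decarboxylase (Amd1), and spermidine/spermine acetyltransferase (Sat1) starts the way back. Polyamines feed back on translation at several of these mRNAs: they promote the ribosomal frameshift that yields antizyme (Oaz1), which carries ornithine decarboxylase to the proteasome, and they act through upstream open reading frames on Azin1, the antizyme inhibitor, and on Amd1. A count per gene merges footprints from all parts of a transcript that the annotation assigns to it, so upstream frames and the frameshift of Oaz1 could not be read separately.

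Ass1 and Amd1 were the members whose CPM values did not overlap between the groups, 2 of 9 tested, where 20.2% of all tested genes did not. They were picked on that basis to show the DNA upstream of their start sites, taken from RefSeq on GRCm38.p6. The table of promoters matched 6 of the 10 genes by symbol, Ass1, Oat, Odc1, Oaz1, Amd1 and Sat1, and 250 bases upstream of the start site were read for each. The Ass1 stretch lies at chr2:31470020-31470269 on the plus strand and the Amd1 stretch at chr10:40302189-40302438 on the minus strand, both written 5′ to 3′. Capitals mark the E-box CACGTG, a site bound by MYC and hypoxia-inducible factors, and the cyclic AMP response element half-site TGACG or its complement CGTCA.
Ass1: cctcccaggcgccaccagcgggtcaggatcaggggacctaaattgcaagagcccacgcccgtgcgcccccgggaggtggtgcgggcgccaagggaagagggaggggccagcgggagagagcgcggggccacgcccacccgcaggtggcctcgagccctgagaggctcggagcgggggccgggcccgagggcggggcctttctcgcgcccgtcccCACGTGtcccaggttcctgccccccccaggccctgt
Amd1: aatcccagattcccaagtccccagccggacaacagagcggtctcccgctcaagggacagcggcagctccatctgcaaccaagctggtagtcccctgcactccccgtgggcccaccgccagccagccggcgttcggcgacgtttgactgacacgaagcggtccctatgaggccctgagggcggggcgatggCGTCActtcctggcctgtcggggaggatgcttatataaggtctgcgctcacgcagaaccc

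The E-box in the Ass1 stretch starts 36 bases before the start site, and among the 6 matched members Ass1 alone held that motif. Over all 32851 promoters of the same length, 6.02% held it. The half-site in the Amd1 stretch starts 60 bases before the start site, and TATAA, the TATA motif, starts 27 bases before it, with TTATA overlapping it on the other strand. The half-site was also found upstream of Odc1 and Oaz1, so 3 of 6 held it, against 17.8% of all promoters. TATAA or TTATA occurred upstream of Amd1 alone among the 6, against 22.8% of all promoters. GGGCGG or CCGCCC, the GC box, was present in 4 of 6 (Ass1, Amd1, Odc1 and Sat1), against 32.7%, and TGATGNAA or TTNCATCA, the core of the amino acid response element, in none of the 6, against 3.45%. These matches describe letters in the window, and footprints do not measure promoter activity.

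Ass1 footprints were 63.5, 61.9 and 60.2 CPM in sgNT libraries 1 to 3 and 30.0, 32 and 35.3 CPM in sgLTN1 libraries 1 to 3. All 3 sgLTN1 libraries lay far below all 3 controls. The means were 61.8 ± 1.65 and 32.4 ± 2.71 CPM (SD, n = 3 per group), so 0.525 of the control level was left, and the log2 fold change was -0.94 (SE 0.08, 95% interval -1.13 to -0.75). These values rest on 1056 and 799 counts, and the coefficient of variation between libraries, 2.67% in sgNT and 8.35% in sgLTN1, was near what counting alone gives (5.54% and 6.38%). In lysates of many cells, a lower level in every cell and fewer cells carrying the mRNA cannot be told apart. Leaving out any 1 library kept the log2 fold change between -0.99 and -0.88.

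Asl, which acts directly after Ass1, had overlapping groups. It read 22.7, 22.1 and 23.5 CPM in sgNT and 20.6, 23.6 and 21.4 CPM in sgLTN1. The log2 fold change was -0.06 (SE 0.10, 95% interval -0.27 to 0.15). The number of Ass1 footprints per Asl footprint, a ratio that does not depend on library scaling, was 2.80, 2.79 and 2.56 in sgNT and 1.46, 1.36 and 1.65 in sgLTN1. The group means of this ratio were 2.72 ± 0.136 and 1.49 ± 0.15, which is 0.548 of the control, and the groups did not overlap.

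Oat had the most counts of the 10 genes, with 639 to 1612 per library, and so the smallest counting error. It read 146, 150 and 161 CPM in sgNT and 146, 142 and 159 CPM in sgLTN1, with overlapping groups and a log2 fold change of -0.04 (SE 0.07, 95% interval -0.19 to 0.12). Arg2 was at trace level, with 0, 1 and 0 counts in sgNT and 6, 2 and 0 counts in sgLTN1, and was too low to be tested. Its summed rate in sgLTN1 over sgNT was 5.15, and counting error alone gave an exact 95% interval from 0.690 to 228, so no difference was detectable at this depth. Arg1, the cytosolic liver arginase, was as scarce, with 11 and 7 counts over the groups.

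**Figure D1:**
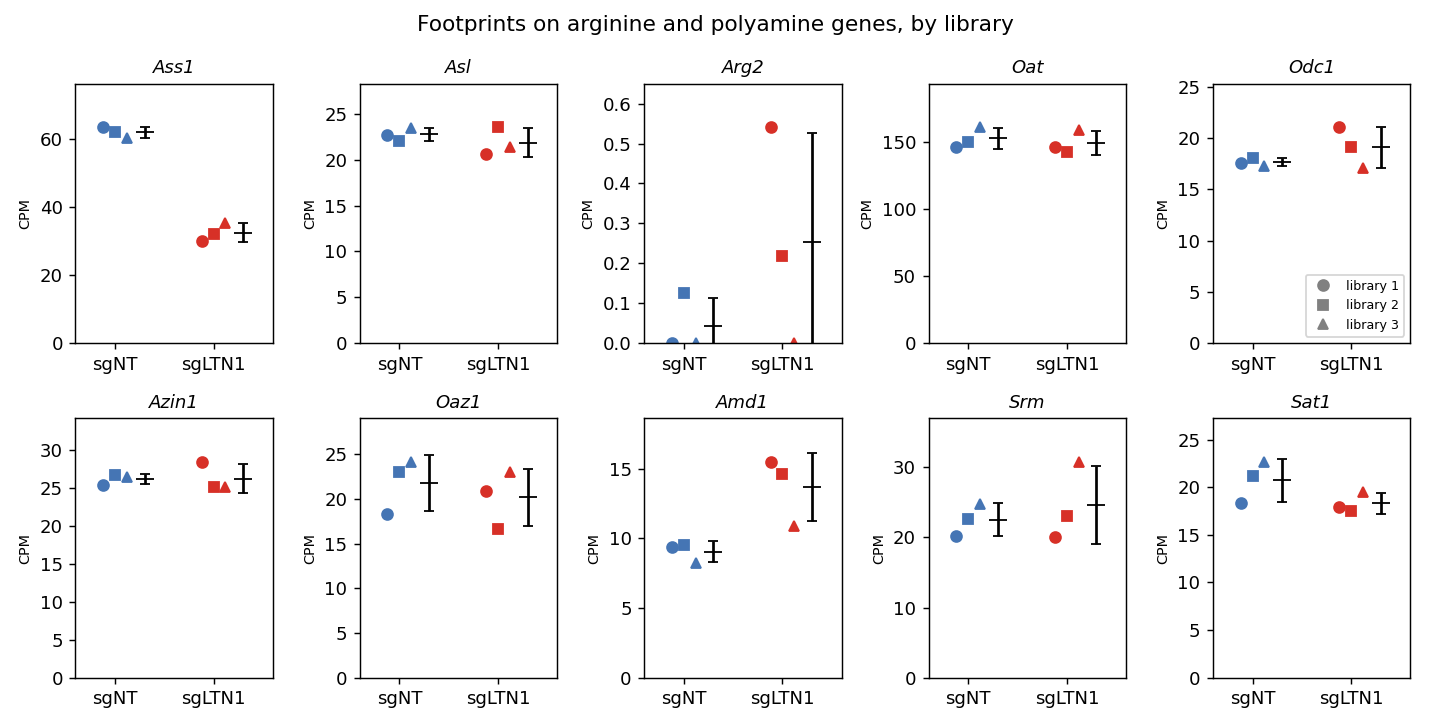
Footprints on each of the 10 genes as CPM (vertical axis from 0, own scale per gene) in the 3 sgNT (blue) and 3 sgLTN1 (red) libraries. Symbols mark libraries 1 to 3 and black bars the mean with SD, cut at 0 for Arg2. Ass1 lies between 60.2 and 63.5 in sgNT and between 30.0 and 35.3 in sgLTN1, Amd1 lies higher in each sgLTN1 library than in any control, and the other genes overlap between the groups.

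At the entry to polyamine synthesis, Odc1 read 17.6, 18.1 and 17.3 CPM in sgNT and 21.1, 19.1 and 17.1 CPM in sgLTN1. Library 3 of sgLTN1 lay below all controls and the other 2 above them, and the log2 fold change was 0.13 (SE 0.11, 95% interval -0.11 to 0.37). The antizyme gene Oaz1 read 18.3, 23.0 and 24.2 CPM in sgNT and 20.9, 16.7 and 23.0 CPM in sgLTN1 (log2 fold change -0.14, SE 0.14). Its values were spread widely within each group, with coefficients of variation of 14.1% and 15.8% against 9.45% and 8.11% from counting. The antizyme inhibitor gene Azin1 read 25.4, 26.7 and 26.5 CPM in sgNT and 28.5, 25.2 and 25.1 CPM in sgLTN1, with a log2 fold change of 0.01 (SE 0.09, 95% interval -0.20 to 0.21). The 3 genes of this regulatory circuit thus overlapped between the groups.

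Ratios within a library, free of scaling, overlapped for this circuit as well. Odc1 footprints per Oaz1 footprint were 0.962, 0.785 and 0.714 in sgNT and 1.01, 1.14 and 0.741 in sgLTN1. Azin1 per Oaz1 was 1.39, 1.16 and 1.1 in sgNT and 1.37, 1.51 and 1.09 in sgLTN1. In both ratios the highest value belonged to sgLTN1 library 2, while sgLTN1 library 3 lay within the controls or below them.

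Amd1, whose product supplies the aminopropyl group for spermidine and spermine, gave the second set of values that did not overlap. It had 41, 77 and 38 counts in sgNT and 172, 134 and 53 counts in sgLTN1, or 9.40, 9.53 and 8.2 CPM and 15.5, 14.6 and 10.9 CPM. Each sgLTN1 library lay above each control, with library 3 of sgLTN1 nearest to them. The log2 fold change was 0.62 (SE 0.16, 95% interval 0.27 to 0.96), and it was 0.73 without sgLTN1 library 3 and 0.51 without sgLTN1 library 1. Amd1 was not past the threshold of an adjusted p of 0.05 over all genes, and it was past it without sgLTN1 library 3, a setting that called 2.47% of all tested genes. Amd1 was also past it with no filter on low counts (0.64), which called 1.06%. With the replicate number as a block (0.60), which called 4.76%, it was past it as well. These were 3 of the 14 alternative settings that gave Amd1 an adjusted p. DESeq2 without independent filtering did not call it, nor did edgeR when any library other than sgLTN1 library 3 was left out.

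Amd1 has a near-identical copy, Amd2, which the table lists as a gene of its own. Amd2 was listed with 41, 77 and 36 counts in sgNT and 165, 128 and 53 counts in sgLTN1, the same number as Amd1 in 3 of 6 libraries and 500 against 515 counts in all. Reads of the copies therefore cannot be told apart, and the Amd2 log2 fold change of 0.59 (SE 0.15, adjusted p = 0.131 in edgeR) is no second measurement. It was past the threshold without sgLTN1 library 3 (0.69, adjusted p = 0.0351 in edgeR) and with the replicate number as a block (0.57, adjusted p = 0.0393 in edgeR). Amd1 footprints per Odc1 footprint were 0.532, 0.527 and 0.475 in sgNT and 0.735, 0.761 and 0.639 in sgLTN1, and these groups did not overlap.

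Srm, the spermidine synthase gene, read 20.2, 22.6 and 24.8 CPM in sgNT and 20, 23.1 and 30.8 CPM in sgLTN1. Library 3 of sgLTN1 held the highest value of the 6 and library 1 the lowest, so the group spanned the controls, and the log2 fold change of 0.09 (SE 0.15) turned to -0.06 without sgLTN1 library 3. Sat1, which acetylates spermidine and spermine for export or breakdown, read 18.3, 21.2 and 22.7 CPM in sgNT and 17.9, 17.5 and 19.5 CPM in sgLTN1, with a log2 fold change of -0.19 (SE 0.11, 95% interval -0.43 to 0.04). Sat1 footprints per Srm footprint were 0.909, 0.934 and 0.913 in sgNT and 0.892, 0.756 and 0.633 in sgLTN1. The groups did not overlap in this ratio, but sgLTN1 library 1 lay next to the controls and the sgLTN1 values were spread over a wider range (SD 0.129 against 0.0136).

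**Figure D2:**
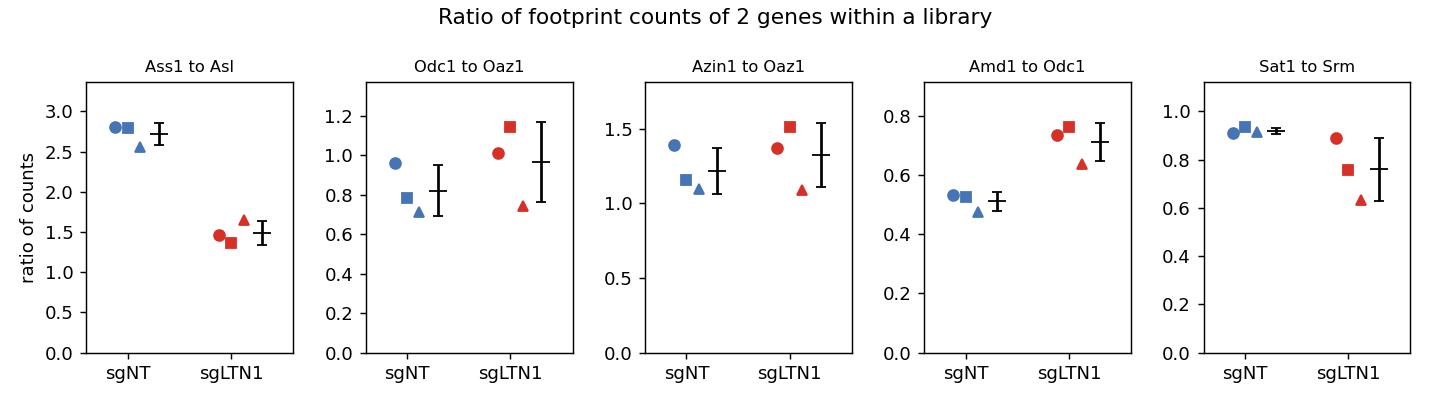
Counts of one gene divided by counts of another within the same library (vertical axes from 0), for 5 pairs in the 3 sgNT (blue) and 3 sgLTN1 (red) libraries, with the mean and SD as black bars. The mean of Ass1 to Asl is 2.72 in sgNT and 1.49 in sgLTN1, Amd1 to Odc1 is higher in each sgLTN1 library, and the ratios to Oaz1 overlap.

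Of the 10 genes, 9 had enough counts to be tested over all genes, and 1 of these 9, Ass1, passed an adjusted p of 0.05, where 0.180% of the 12782 tested genes did. Values did not overlap between the groups for 2 of the 9, against 20.2% of tested genes. The 9 log2 fold changes ran from -0.94 to 0.62, with 4 above 0, 5 below and a median of -0.04 (-0.02 over all tested genes). Nothing is read from these counts, since the same comparison led to the choice of genes.

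**Figure D3:**
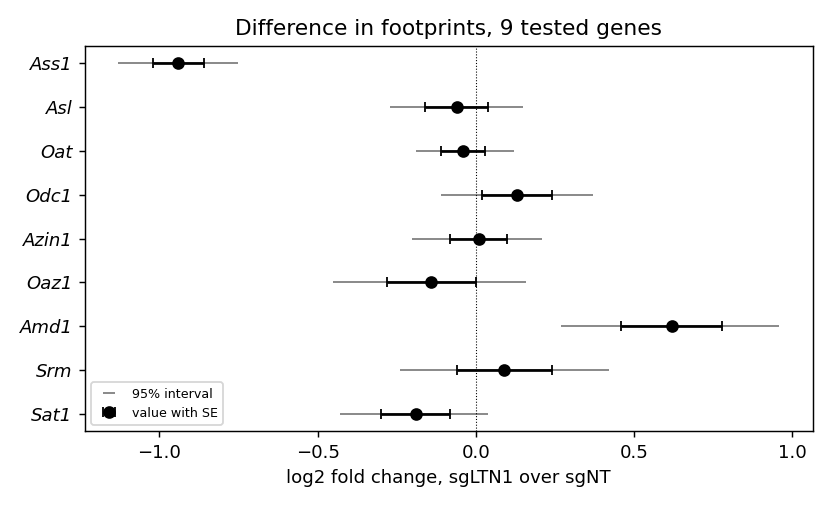
Log2 fold change of footprints, sgLTN1 over sgNT (horizontal axis), for the 9 tested genes, with the SE as capped black bars and the 95% interval as grey lines. Ass1 lies at -0.94 and Amd1 at 0.62, and the other 7 intervals include 0.

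The wider pathway was followed through 7 lists chosen by function, with 86 genes besides the 10, of which 69 were tested. None of the 69 passed the threshold in edgeR, 9 had an unadjusted p below 0.05 (15.6% of all tested genes had one), and DESeq2's Wald test called 3 (8.42% of the genes for which it gave an adjusted p). That run gave many of the 69, Amd2, Got2 and Gls2 among them, no adjusted p. The 3 are therefore not a share of 69 to set against 8.42%. Without independent filtering by mean count, DESeq2 called 0 of them (0.365% of all genes). The median log2 fold change of the 69 was 0.03, between -0.54 and 0.59. Amd2, whose reads cannot be told apart from those of Amd1, holds the highest value and is among the 9. Creatine and nitric oxide genes, which draw on arginine, and the other urea cycle genes included 10 tested of 18, with a median of -0.08 and the creatine transporter gene Slc6a8 at 0.23 (SE 0.12) and the aspartate carrier gene Slc25a12 at -0.10 (SE 0.07). Footprints on the urea cycle genes Cps1, Otc and Nags were too few to be tested.

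Arginine uptake genes had high counts. Slc7a1 and Slc7a3, which encode cationic amino acid transporters, read 461 to 489 and 839 to 918 CPM in sgNT and 536 to 567 and 998 to 1070 CPM in sgLTN1. No sgLTN1 library overlapped the controls for either gene, with log2 fold changes of 0.21 (SE 0.06, adjusted p = 0.132) and 0.22 (SE 0.06, adjusted p = 0.134) in edgeR's test. DESeq2 called both (adjusted p = 0.036 for Slc7a1 and 0.0316 for Slc7a3), in a run that gave 2697 genes an adjusted p. Without independent filtering DESeq2 called neither (adjusted p = 0.218 and 0.192). With the replicate number as a block, which called 4.76% of all tested genes, edgeR called both (adjusted p = 0.0219 and 0.0231). Each of the 2 genes was past the threshold in 2 of 15 alternative settings. The lysosomal exporter gene Slc66a1 was at 0.24 (SE 0.07, adjusted p = 0.174 in edgeR). Slc7a2 of the same list overlapped between the groups, with 184 to 217 CPM in sgNT and 186 to 227 CPM in sgLTN1 (0.07, SE 0.09). All 9 tested genes of arginine transport and sensing had log2 fold changes above 0 (7 of 9 with scaling by total counts), with a median of 0.21, and 5 of 9 did not overlap between the groups, against 20.2% of all tested genes. The median was 0.12 without sgNT library 2, and 8 of 9 were above 0 without sgNT library 3 or without sgLTN1 library 1. The 505 most abundant genes (log2 CPM of at least 8) had a median log2 fold change of 0.14 with 81.4% above 0, and Slc7a1, Slc7a3 and Slc3a2 are among them. With that abundance trend removed 7 of the 9 were above 0, the median was 0.09, and Slc7a1 and Slc7a3 were at 0.11 and 0.09. With scaling by total counts the median was 0.14. How far abundance accounts for the values of this list was not tested beyond these settings.

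Polyamine genes other than the 10 had 9 tested of 13, with 5 above 0, 4 below and a median of 0.05 (-0.03 with scaling by total counts and -0.08 without sgNT library 3). Amd2 is among the 5 above 0. Atp13a3, which encodes a P-type ATPase of polyamine transport, read 105, 94.5 and 75.9 CPM in sgNT and 137, 133 and 104 CPM in sgLTN1. The highest control just exceeded sgLTN1 library 3, and the log2 fold change was 0.45 (SE 0.13, adjusted p = 0.149 in edgeR). Without sgLTN1 library 3 it was 0.56 and past the threshold (adjusted p = 0.0249 in edgeR), as it was in DESeq2 with all libraries (0.47, adjusted p = 0.0143). With no filter on low counts or with the replicate number as a block, edgeR also called Atp13a3 (adjusted p = 0.0279 and 0.0056). DESeq2 without independent filtering did not (adjusted p = 0.0875). The lysosomal polyamine exporter gene Atp13a2 read 23.9 to 27.6 CPM and 29.2 to 31.7 CPM (0.23, SE 0.09, adjusted p = 0.25 in edgeR). Paralogs of the regulators were at -0.27 (SE 0.15) for the antizyme gene Oaz2 and -0.54 (SE 0.40, from -1.12 to -0.11 when 1 library was left out) for the acetyltransferase gene Sat2, and Azin2, with 13 and 25 counts, was not tested.

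Spermidine is also the donor for hypusine, the modified lysine of the translation factor eIF5A, and all 4 genes of that pathway were tested. Eif5a was at -0.16 (SE 0.11) and at -0.03 without sgNT library 3, its paralog Eif5a2 at -0.28 (SE 0.35) on 48 and 58 counts, the deoxyhypusine synthase gene Dhps at -0.29 (SE 0.17) and the hydroxylase gene Dohh at 0.03 (SE 0.11). The S-adenosylmethionine and salvage list had 15 tested of 18 with a median of -0.04, and Mat2a, which encodes the synthase of S-adenosylmethionine, was at -0.19 (SE 0.09, adjusted p = 0.315 in edgeR) and at -0.10 without sgNT library 1. In the ornithine, proline, glutamate and aspartate list, 12 were tested of 13, with a median of 0.04 (-0.04 with scaling by total counts). Got2, the mitochondrial aspartate aminotransferase gene, was at -0.24 (SE 0.10, adjusted p = 0.275 in edgeR) and at -0.13 without sgNT library 2, with the glutaminase gene Gls2 at 0.25 (SE 0.11, adjusted p = 0.293 in edgeR). Among genes that use arginine in proteins, all 10 were tested, with 5 above 0 and 5 below (1 and 9 with scaling by total counts), and the arginyl-tRNA synthetase gene Rars1 was at 0.05 (SE 0.09).

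**Figure D4:**
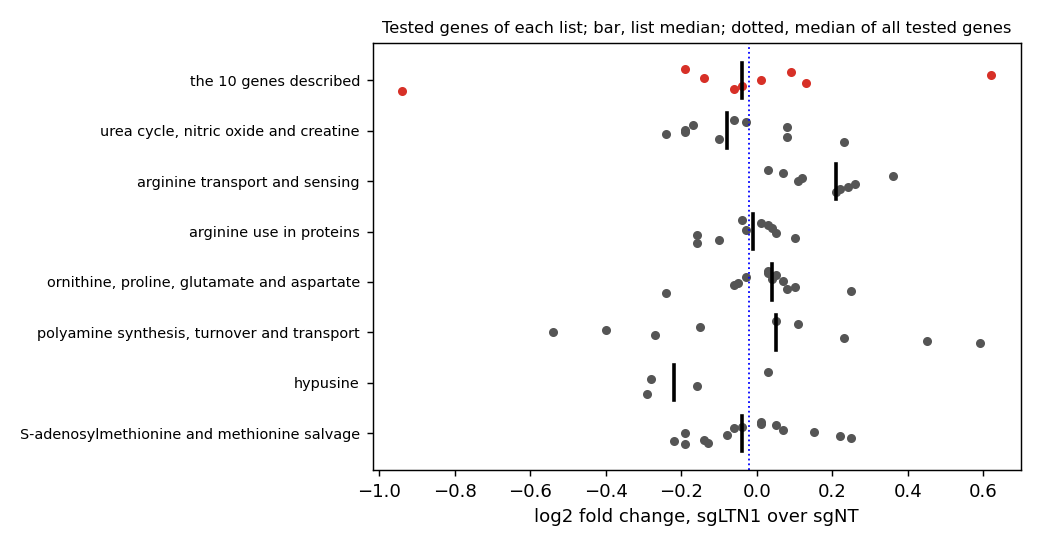
Log2 fold change, sgLTN1 over sgNT (horizontal axis), of each tested gene in the set of 10 (red) and in 7 lists of the wider pathway (grey), with black bars at list medians and a dotted line at the median of all tested genes, -0.02. Arginine transport and sensing has the highest median, 0.21, and its 9 genes all lie above 0 (7 of 9 with scaling by total counts).

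Genes whose pattern over the 6 libraries was most like that of Ass1 were sought among 7728 tested genes with at least 10 CPM in the higher group. The highest Pearson correlations of log2 CPM, from 0.987 to 0.995 over 6 libraries, belonged to Elavl4, Fut10, Dpysl2, Pfn1 and Rab8a. All 5 were lower in each sgLTN1 library than in any control, which follows largely from choosing them by this correlation (20.2% of all tested genes did not overlap). They differed by less than Ass1, with log2 fold changes from -0.40 (Fut10) to -0.19 (Dpysl2). None of the 5 passed the threshold (adjusted p 0.15 to 0.214 in edgeR). The libraries form a pair of groups, and 201 genes exceeded a correlation of 0.9 while 270 lay below -0.9. By Spearman rank correlation 18 genes tied at the top, of which 1, Elavl4, was among the 5.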

How the data were processed

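Read counts per gene, whole and not normalized, were deposited by the authors for the 6 libraries. The submitters' processing notes name the build GRCm39, featureCounts 2.12.3, STAR 2.7.11a and Bowtie2 2.5.4, with fastp 0.23.4, SAMtools 1.9 and UMI-tools 1.1.2. Annotation, strand setting and the handling of reads with several alignments were not given in the sources used here. The authors' other table gives, per the file headers, a mean normalized count (a signal), log2 fold changes with standard errors, Wald statistics (a score) and p-values from DESeq2, version 1.38.3 in the notes.

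Counts were analysed with edgeR 4.0.16, limma 3.58.1 and DESeq2 1.42.0 in R 4.3.3. Genes were kept by filterByExpr and scaled by TMM. The quasi-likelihood test used group as its only term, with Benjamini-Hochberg adjustment over all tested genes and a threshold of 0.05. SEs come from the test statistic, and log CPM used a prior count of 2. Ratios used raw counts. Every replicate pair differed by more than sampling noise (chi-square per degree of freedom at least 2.60). The steps were tested on simulated data. Levels per coding length, planned to compare genes with each other, were not computed because no coding lengths were used here, so levels are compared only between libraries.

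The 10 genes, the pathway lists and the alternatives were chosen with earlier results of these data known. The named genes are the 10, Ltn1, listed copies and paralogs, the 3 genes of smallest p in each list, and the 5 genes most like Ass1. Some of these are left out of the text. Ins2, Iapp, Chga, Slc2a2, Gcg, Sst, Ppy, Cd68, Slc3a2, Slc7a2, Cps1, Otc, Nags, Dohh and Rars1 were named outside this rule, after their values were seen. Groups come from the genotype in the labels. No column of other samples was present.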

Additional observations from a re-analysis of the deposited data

How the results depend on the processing

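Ass1 kept its direction under all 15 alternatives, with log2 fold changes from -1.02 (total counts) to -0.88 (without sgLTN1 library 1). The count of genes past the threshold, 23 here, was 42 with total counts, 40 with limma-voom, 222 with no filter, 227 with DESeq2 and 76 with DESeq2 without independent filtering, which was chosen after seeing the data, and 4 to 333 when 1 library was left out. Of the 10 genes, 1 was past the threshold, 2 were with no filter (1.06%) and 1 to 2 when 1 library was left out (2 without sgLTN1 library 3, 2.47%), the second gene being Amd1. In DESeq2 0 were (8.42% of genes with an adjusted p), but of the 9 tested genes only Oat was given an adjusted p (0.937 in the Wald test). Ass1 and Amd1 were given none there, so that run could not call them. Without independent filtering, DESeq2 called 1 of the 10, Ass1 (0.365%). Of the 69 other pathway genes, 0 were past the threshold, and 3 were with DESeq2, which gave many of them no adjusted p (0 without independent filtering). With no filter 1 was, and 0 to 2 were when 1 library was left out. The 2, without sgLTN1 library 3, include Amd2. Of 47 genes followed over the alternatives, 10 changed sign, all with reported values between -0.10 and 0.11. Among the 10 described these were 3: Oat (0.01 without sgNT library 3 or sgLTN1 library 2), Azin1 (-0.07 with total counts, -0.06 without sgLTN1 library 1) and Srm (-0.06 without sgLTN1 library 3). The 7 others were Slc3a2 (-0.02 without the abundance trend), Slc7a2 (-0.01 with total counts), Dohh (-0.05 with total counts, -0.04 to 0.11 when 1 library was left out), Rars1 (-0.03 and -0.02 to 0.11), Gcg (-0.06 and -0.03 to 0.06, and -0.10 without the abundance trend), Prmt7 (-0.18 to 0.04) and Prmt3 (-0.02 to 0.21), the last pair without sgNT library 2. With the replicate number as a block, 609 genes were past the threshold, 2 of the 10 genes (Ass1 and Amd1, 4.76% of all) and 4 of the 69 (Amd2, Atp13a3, Slc7a1 and Slc7a3). Ass1 stayed at -0.94 and Amd1 was at 0.60. Over all tested genes, deviations of same-numbered libraries correlated at -0.05, 0.07 and 0.09 (-0.12 to 0.10 for other pairs). The numbers were not taken to pair the libraries. Genes of low count enter these correlations, so a pairing seen only in well-counted genes was not tested. With the block the SE of Atp13a3 fell from 0.13 to 0.06, while that of Asl stayed at 0.10. Levels per length were not run. At this depth Amd1, with 38 to 172 counts per library, and Arg2 were the least precise.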

Other observations

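In the authors' deposited table, Ass1 had the second smallest p-value of 20850 genes (rank 2, log2 fold change -0.92, SE 0.13) but no adjusted p, and so it is not among the 227 genes called there. The same comparison led to the choice of Ass1, so its rank is a description and supports nothing. The lowest mean normalized count with an adjusted p in that table was 309, and Ass1 stood at 308, a gap of 0.838 counts. Of the 10 genes, 1 had an adjusted p there, Oat (0.937). Amd1 was listed in the authors' deposited table at 0.63 (SE 0.24).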
